A study of Mus musculus with 6 samples.

Results

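The genes described here are the mouse zinc finger genes named *Zfp400* to *Zfp999*. They were taken by symbol alone, as every row of the count table whose name is Zfp followed by 3 digits, the first of them from 4 to 9, and 193 of the 15266 listed genes met this rule. Their messenger RNA was measured by mRNAseq in day 4 embryoid bodies (D4 EBs), aggregates of differentiating mouse embryonic stem cells (mESCs) in which a gastrulation-like programme unfolds. All EBs were derived from W9.5 mESCs and were kept for 4 days in serum medium without LIF. The EVX1-Δfs group holds 3 libraries of clone 14, in which Cas9 and a single guide produced small frameshift deletions in the homeodomain region of *Evx1* exon 2, with the antisense lncRNA *Evx1as* left in place. The Del#3 group holds 3 libraries of a line from which a pair of guides removed 2.6 kb, including the promoters of *Evx1* and *Evx1as*. Neither line makes functional EVX1. The comparison takes in the loss of *Evx1as*, of the *Evx1* transcript and of 2.6 kb of DNA together, and these cannot be told apart. Each group is 1 cell line, so the effect of the deletion and clonal variation cannot be told apart. The replicates of a line were separate differentiations set up on different days, the lines side by side.

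The check of the targeted genes came first, and here as in all later sentences the 3 values of a line are given in the order of its replicates 1, 2 and 3. *Evx1* had 4023, 3132 and 2582 reads in EVX1-Δfs and 48, 28 and 31 reads in Del#3. *Evx1as*, listed as *5730457N03Rik*, had 879, 588 and 571 reads in EVX1-Δfs and 21, 22 and 30 in Del#3, as the labels require. Depth was 9024579 to 15699124 reads on listed genes per library. Marker genes of pluripotent, streak, endoderm, neurectoderm, blood and fibroblast cells were all detected apart from *Dcn*, which is not among the rows analysed, and none was called between the lines.

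Most proteins of this family carry C2H2 zinc fingers, short loops held by a zinc ion between a pair of cysteines and a pair of histidines. Fingers stand in tandem arrays, each contacting a few bases of DNA, so that long arrays can read long sites. Many of the genes also encode a KRAB domain, which recruits TRIM28 (KAP1) and through it SETDB1, HP1 proteins and DNA methyltransferases. In mESCs and the early embryo this machinery is known for silencing retroelements and for keeping methylation at imprinted loci. KRAB zinc finger genes arose by tandem duplication and lie in clusters, often with similar sequences. Other members have no KRAB domain and act in development, in chromatin complexes or on RNA.

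The 3 genes with the smallest unadjusted p values between the lines were *Zfp711*, *Zfp770* and *Zfp445*, and 1 finger of each is shown so that the shared frame and the variable bases between can be seen. The sequences are the sense strand of coding exons, 63 bases long, of the NCBIM37 (mm9) build, in lower case with the codons of the zinc-binding cysteines and histidines in capitals. The *Zfp711* finger lies at chrX:109746032-109746094 on the plus strand, in exon 9 of 9. The *Zfp770* finger lies at chr2:114023164-114023226 on the minus strand, in exon 2 of 2. The *Zfp445* finger lies at chr9:122762517-122762579 on the minus strand, in exon 6 of 6.
Zfp711: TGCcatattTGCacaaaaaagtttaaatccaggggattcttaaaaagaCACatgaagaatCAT
Zfp770: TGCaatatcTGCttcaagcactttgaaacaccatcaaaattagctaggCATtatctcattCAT
Zfp445: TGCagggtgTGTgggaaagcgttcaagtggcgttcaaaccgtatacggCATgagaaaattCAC

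A coding sequence was found for 190 members, and they held a median of 10 fingers by the spacing pattern, with a range of 0 to 33. The pattern found no finger in 8 members, among them *Zfp503* and *Zfp703*, which encode NET family co-repressors with a single atypical finger. A match to the core of the KRAB A box was found in 79 members, and 111 had none. The members lay on 19 chromosomes, with 51 on chromosome 7, 24 on chromosome 17, 18 on chromosome 8 and 16 on chromosome 13. With gaps under 200 kb joined and at least 3 members required, 85 members fell into 15 clusters. Of 190 members checked, 109 shared no stretch of 50 bases with a coding transcript of another annotated gene. Under 5% of stretches were shared in 155, while 17 shared over 20%, so the counts of those 17 are uncertain where reads could be split between copies. Noncoding transcripts and pseudogenes were not searched.

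Members were expressed at low levels. Their mean over the 6 libraries had a median of 88.6 normalized counts, with quartiles of 19.5 and 267, beside a median of 175 for all listed genes. Counts are reads divided by the size factor of the library. Per length of annotated exons, 191 members spanned 0.0543 to 40.7 RPKM, with a median of 2.30.

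The highest levels per length belonged to *Zfp771*, with a mean of 40.7 RPKM, and *Zfp428*, with 39.97 RPKM. They were followed by *Zfp639* at 36.2, by *Zfp828*, which encodes a protein needed for chromosome alignment at mitosis, at 35.9, and by *Zfp593*, a factor of ribosome assembly, at 33.0 RPKM. The ranges over the 6 libraries overlapped between neighbours in this order. *Zfp771* ran from 32.1 to 51.8 RPKM and *Zfp428* from 30.6 to 49.7 RPKM, while *Zfp593* ran from 18.4 to 40.2 RPKM, so the order of these 5 genes is not fixed by the data. The exons of *Zfp639* are annotated for the coding part alone, as are those of 21 members in all, and this raises its level per length. None of the 5 matched the KRAB pattern, and *Zfp428* and *Zfp593* had 1 finger each.

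Level per length varied with a match to the KRAB pattern and with the number of fingers. A missing match does not show that the domain is absent. Members with a KRAB match had a median of 1.12 RPKM and members without one 4.23 RPKM. Members with 1 to 5 fingers (32 genes) had a median of 10.8 RPKM, those with 6 to 10 (62 genes) 2.68 RPKM and those with 11 or more (88 genes) 1.37 RPKM. Across 190 members the Spearman correlation of log2 RPKM with the number of fingers was -0.278, given as a description over genes that share the same 6 libraries. The plot of level against finger number shows wide scatter within every class.

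**Figure D1:**
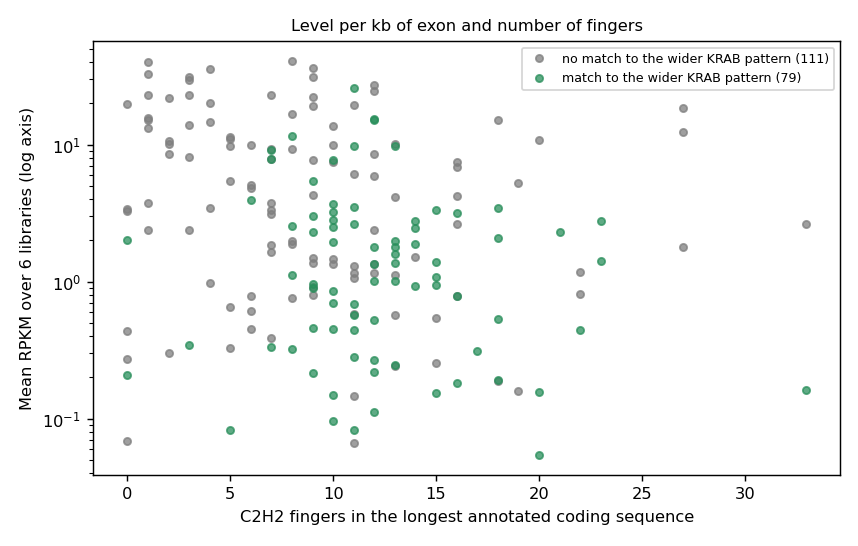
Mean level per length over the 6 libraries (RPKM, log axis) against the number of C2H2 fingers in the coding sequence, 1 point per gene, coloured by a match to the KRAB pattern. The median falls from 10.8 RPKM with 1 to 5 fingers to 1.37 RPKM with 11 or more.

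The filter on low counts kept 169 members among 12891 genes, and 24 members were not tested. The untested members had means of 1.60 to 9.76 normalized counts and between 12 and 68 reads over all 6 libraries, with a median of 36. The lowest was *Zfp781*, with 12 reads, which also shared over 50% of its sequence stretches with other transcripts. Of the cluster of 12 members at chr13:67139530-67890019, which includes *Zfp708*, only 4 passed the filter. *Zfp708* is known to bind retrotransposons in the early embryo. It had 9.24, 8.2 and 2.36 normalized counts in EVX1-Δfs and 16.7, 3.48 and 2.14 in Del#3, and the lines overlapped.

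Between the lines, no member was called. In bulk EBs, fewer cells of a type and less RNA per cell cannot be told apart, here or in later comparisons. With limma and Benjamini-Hochberg adjustment over all genes tested, 0 of 169 members had an adjusted p under 0.05, while 2 of 12891 genes did (0.0155%), and these were *Evx1* and *Evx1as*. The quasi-likelihood test of edgeR and the Wald test of DESeq2 on the recovered reads also called 0 members. At an unadjusted p under 0.05 in limma, 3 members were higher in Del#3 (1.78%, against 0.830% of all genes tested) and 0 were lower (against 0.202%). With the replicate number as a block, 12 members were higher (7.10%, against 3.64% of all genes tested) and 0 lower (against 0.985%), and again none had an adjusted p under 0.05. Without EVX1-Δfs replicate 1, 2 or 3 the unadjusted count of members higher in Del#3 was 10, 1 and 9 in place of 3. These were 5.85%, 0.575% and 5.2% of members tested, against 3.20%, 0.464% and 1.54% of all genes tested. Without Del#3 replicate 2 or 3 the count was 3 and 7 (1.73% and 4.02%, against 1.63% and 1.26% of all genes). Without Del#3 replicate 1, 1 member was higher, against 0.261% of all genes, and 1 was lower. In that fit 1.18% of members and 0.599% of all genes had an unadjusted p under 0.05 in either direction.

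Bounds on these differences were wide. The 95% interval of the fold change lay within 2-fold for 81 members (47.9%) and for 61.1% of all genes tested. A change larger than 2-fold could thus not be excluded for the other members at this depth and number of libraries. The standard error of the log2 fold change had a median of 0.35 over members and ranged from 0.21 to 1.11.

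The members' fold changes were shifted slightly upwards in Del#3. The median log2 fold change (Del#3 over EVX1-Δfs) was 0.12, with quartiles of -0.05 and 0.40 and a range of -0.84 to 1.92, against a median of 0.0022 over all genes tested. It was above 0 for 112 members (66.3%), against 50.4% of all genes tested. Trimmed-mean (TMM) scaling gave 119 members above 0 and scaling by total reads 125, with 54.0% and 56.1% of all genes above 0. The members' median exceeded that of all genes by 0.11 under each scaling. Since members share 6 libraries, they are not independent replicates, and no p value is given for this count.

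**Figure D2:**
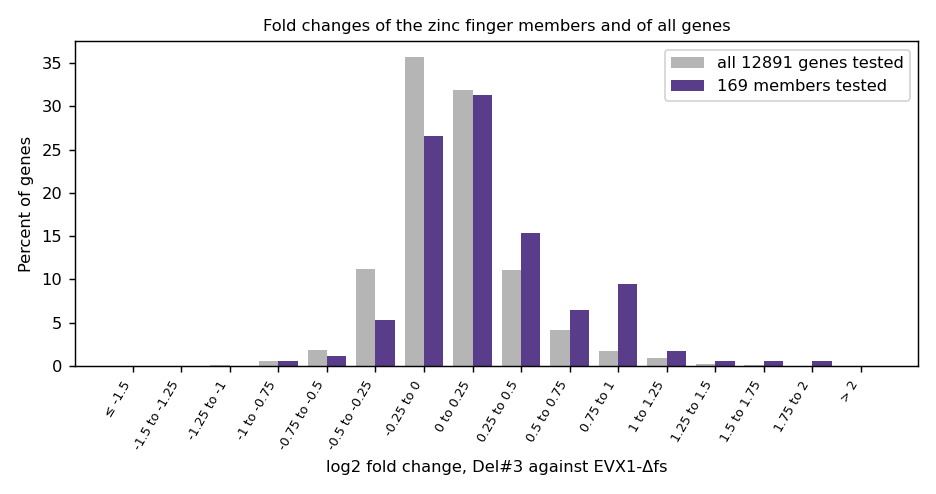
Distribution of log2 fold changes (Del#3 over EVX1-Δfs, log2 of normalized count + 1) for the 169 members tested and for all genes tested, as the share of genes per bin. The members' median is 0.12 and that of all genes 0.0022.

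The size of the shift rested in part on single libraries, and the members' median was above that of all genes in each range of expression. In the 57 members with the lowest means (9.15 to 65.0 normalized counts) the median was 0.17, in the next 56 it was 0.13, and in the 56 with the highest means (244 to 1985 normalized counts) it was 0.055. All genes tested in the same ranges of mean count had medians of 0.036, 0.026 and -0.0096. Above 0 were 64.9%, 73.2% and 60.7% of the members, against 54.2%, 53.5% and 48.1% of all genes in these ranges. The members' corresponding median standard errors were 0.52, 0.33 and 0.28. Without EVX1-Δfs replicate 2 the members' median was 0.060 and 100 of 174 members tested were above 0 (57.5%, against 50.1% of all genes). Without Del#3 replicate 2 it was 0.19, with 123 of 173 members above 0 (71.1%, against 51.0%).

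The summed level of all 193 members overlapped between the lines. It was 3981, 4052 and 3583 RPM (reads per 1000000 reads on listed genes) in EVX1-Δfs and 4632, 3815 and 4358 in Del#3. The highest sum was that of Del#3 replicate 1 and the lowest that of EVX1-Δfs replicate 3. The means differed by 396 RPM, with a pooled SD of 344 within lines (n = 3 each).

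Of the genes that stood higher in Del#3, *Zfp711* had the largest fold change. It is X-linked and encodes a DNA-binding partner of the histone demethylase PHF8, and its human counterpart is known for intellectual disability. It had 32.3, 5.86 and 61.4 normalized counts in EVX1-Δfs and 147, 116 and 43.8 in Del#3. The lowest value by far was that of EVX1-Δfs replicate 2, and Del#3 replicate 3 lay below EVX1-Δfs replicate 3, so the lines overlapped. The log2 fold change was 1.92 with a standard error of 0.75 (limma, unadjusted p = 0.0268, adjusted p = 1.00). With 1 library left out it ran from 1.01, without EVX1-Δfs replicate 2, to 2.6, without EVX1-Δfs replicate 3.

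*Zfp770* had 76.6, 32.8 and 107.5 normalized counts in EVX1-Δfs and 177, 143 and 97.2 in Del#3. EVX1-Δfs replicate 2 was again the lowest library and Del#3 replicate 3 the lowest of its line, within the EVX1-Δfs range. The log2 fold change was 1.05 with a standard error of 0.45 (limma, unadjusted p = 0.0402, adjusted p = 1.00). It was 0.57 without EVX1-Δfs replicate 2 and 1.41 without EVX1-Δfs replicate 3, the extremes with 1 library left out.

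*Zfp445* encodes a KRAB zinc finger protein that, with ZFP57, maintains methylation at imprinted control regions. Its values were 434, 164 and 336 normalized counts in EVX1-Δfs and 991, 417 and 452 in Del#3. Del#3 was higher at every replicate number, but its replicates 2 and 3 lay close to EVX1-Δfs replicate 1, and replicate 2 lay below it. The log2 fold change was 0.99 with a standard error of 0.42 (limma, unadjusted p = 0.0404, adjusted p = 1.00). With the replicate block the standard error was 0.22 and the unadjusted p was 0.00175, with an adjusted p of 0.69. Leaving out EVX1-Δfs replicate 2 or Del#3 replicate 1 lowered the fold change to 0.58 and 0.59, and leaving out EVX1-Δfs replicate 1 gave the highest value, 1.28. Its mean of 15.1 RPKM was likewise computed over the coding part alone.

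*Zfp599*, a KRAB gene of chromosome 9, had 73.3, 39.9 and 102 normalized counts in EVX1-Δfs and 119, 131 and 110.0 in Del#3. These values did not overlap, and the log2 fold change was 0.83 with a standard error of 0.38 (limma, unadjusted p = 0.0502, adjusted p = 1.00). *Zfp951* had 8.58, 1.17 and 18.9 normalized counts in EVX1-Δfs and 33.5, 19.7 and 15.0 in Del#3, where the lines overlapped and 103 reads were behind all 6 values. In each of the 5 genes *Zfp711*, *Zfp770*, *Zfp445*, *Zfp599* and *Zfp951*, EVX1-Δfs replicate 2 had the lowest value of all libraries. Without it the log2 fold change of *Zfp599* was 0.47 and that of *Zfp951* was 0.70, in place of 0.83 and 1.59.

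**Figure D3:**
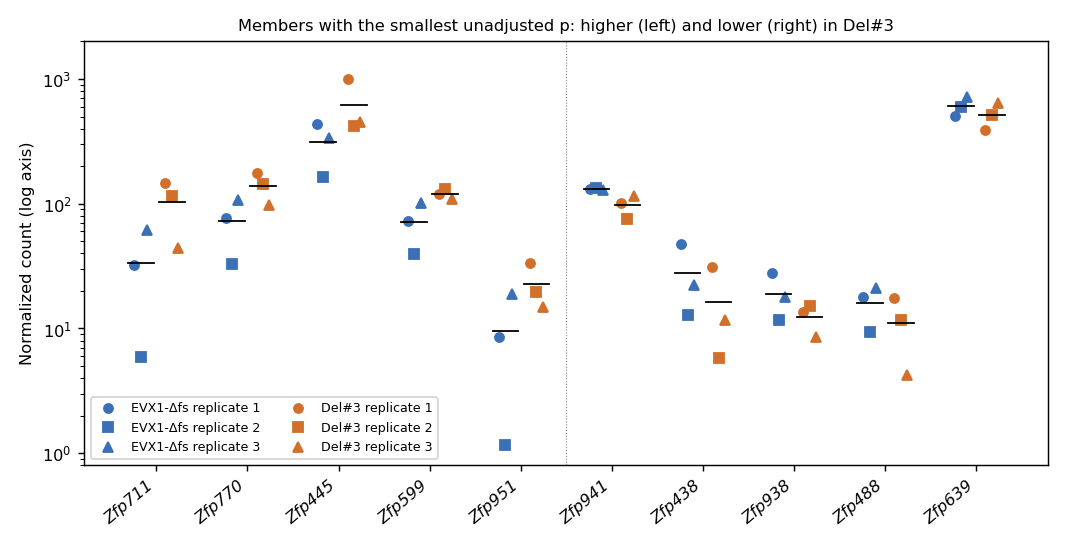
Normalized counts (log axis) in each library of the 5 members with the smallest unadjusted p that were higher in Del#3 and the 5 that were lower, with a colour per line, a symbol per replicate number and a bar at the mean of each line (n = 3). In *Zfp711* EVX1-Δfs replicate 2 is far below the others at 5.86, and in *Zfp445* Del#3 replicate 1 stands highest at 991.

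The lines did not overlap for 10 of the 169 members tested, counted after their values were seen. They were higher in Del#3 for 9 members (5.33%, against 1.71% of all genes tested) and lower for 1 (0.592%, against 1.80%). The 9 were *Zfp523*, *Zfp560*, *Zfp574*, *Zfp599*, *Zfp612*, *Zfp647*, *Zfp719*, *Zfp882* and *Zfp963*. Their log2 fold changes ran from 0.28 for *Zfp647* to 0.83 for *Zfp599*, and none had an unadjusted p under 0.05 in limma without the replicate block. With the block 4 of the 9 did, *Zfp599* (0.0314), *Zfp719* (0.0386), *Zfp882* (0.0472) and *Zfp560* (0.0492), at adjusted p values of 0.99 in limma. *Zfp647* had 144, 164 and 158 normalized counts in EVX1-Δfs and 192, 188 and 185 in Del#3, the tightest of these sets. *Zfp719* had 85.8, 44.5 and 100.4 normalized counts in EVX1-Δfs and 118, 119.6 and 119.6 in Del#3, with the Del#3 libraries nearly equal. *Zfp574* had 592, 701 and 445 normalized counts in EVX1-Δfs and 751, 744 and 757 in Del#3. *Zfp963* shared 40.3% of its 50-base stretches with other transcripts, so reads could be split between copies.

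Of the genes that stood lower in Del#3, none reached an unadjusted p under 0.05. *Zfp941* had 132, 135 and 129.97 normalized counts in EVX1-Δfs and 102, 75.5 and 115 in Del#3, without overlap. Its log2 fold change was -0.46 with a standard error of 0.30 (limma, unadjusted p = 0.152, adjusted p = 1.00). *Zfp438* had 47.5, 12.9 and 22.5 normalized counts in EVX1-Δfs and 31.1, 5.81 and 11.8 in Del#3, with replicate 1 the highest of each line. Its log2 fold change was -0.84 with a standard error of 0.65, and -0.31 without Del#3 replicate 2 and -1.43 without Del#3 replicate 1. *Zfp938*, *Zfp488*, which takes part in oligodendrocyte differentiation, and *Zfp639* had log2 fold changes of -0.54, -0.61 and -0.25, and their lines overlapped.

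Members known for silencing retroelements or imprints were 6, of which 5 were tested. None was called by adjusted p, 3 of 5 fold changes were above 0 and their median was 0.24, beside 0.12 for all members tested. *Zfp568*, which restrains the placental promoter of *Igf2* and is required for gastrulation, had the highest mean count of any member at 1985 normalized counts. It had 1738, 1938 and 2492 in EVX1-Δfs and 1651, 1977 and 2115 in Del#3. The lines overlapped, and in both of them replicate 1 was the lowest and replicate 3 the highest. The log2 fold change was -0.09, with a 95% interval of -0.61 to 0.42. *Zfp809*, which initiates silencing of proviruses that carry the proline tRNA primer site, had 108, 62.1 and 113 normalized counts in EVX1-Δfs and 143, 84.8 and 123 in Del#3. Replicate 2 was the lowest of each line, and the log2 fold change was 0.32 with a standard error of 0.35. It ran from 0.049 to 0.54 with 1 library left out. *Zfp932*, which represses endogenous retroviruses, and *Zfp819* had log2 fold changes of 0.24 and -0.34 with standard errors of 0.51 and 0.45. With 1 library left out that of *Zfp932* ran from -0.21 to 0.61 and that of *Zfp819* from -0.54 to -0.047. *Zfp932* shared 45.1% of its stretches with other transcripts.

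Of 12 zinc finger genes known from development, 9 were listed and 8 tested. None was called, 6 of 8 fold changes were above 0 and their median was 0.13. *Zfp423*, a large multi-finger partner of SMAD and EBF factors, had 794, 762 and 338 normalized counts in EVX1-Δfs and 881, 629 and 962 in Del#3. *Zfp703*, a NET family co-repressor, had 644, 809 and 338 in EVX1-Δfs and 764, 619 and 970 in Del#3. EVX1-Δfs replicate 3 was the lowest library for both genes, Del#3 replicate 3 the highest, and the lines overlapped. Their log2 fold changes were both 0.46, with standard errors of 0.35 and 0.34, and without EVX1-Δfs replicate 3 they were 0.06 for *Zfp423* and 0.10 for *Zfp703*. *Zfp462*, implicated in the maintenance of pluripotency, had 328, 225 and 105 normalized counts in EVX1-Δfs and 498, 193 and 393 in Del#3, a log2 fold change of 0.76 with a standard error of 0.46. It was 0.30 without EVX1-Δfs replicate 3 and 1.16 without Del#3 replicate 2. *Zfp521*, a relative of *Zfp423* that acts in neural differentiation, had 169, 89.1 and 72.1 in EVX1-Δfs and 179, 51.1 and 129 in Del#3. Its log2 fold change was 0.04 with a standard error of 0.49, and ran from -0.33 to 0.56 with 1 library left out. *Zfp516*, a factor of brown fat, and *Zfp467* changed by 0.13 and -0.10 on the log2 scale, within standard errors of 0.23 and 0.29. *Zfp750*, an epidermal differentiation factor, had 68 reads in all and was not tested.

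Of 9 partners of chromatin enzymes and other factors, 8 were listed and all 8 were tested. None was called, 7 of 8 fold changes were above 0 and their median was 0.16. Apart from *Zfp711*, the largest value was that of *Zfp644*, a partner of the G9a and GLP methyltransferases. It had 249, 105 and 435 normalized counts in EVX1-Δfs and 606, 464 and 223 in Del#3. The lines overlapped, and the log2 fold change was 0.82 with a standard error of 0.51, or 0.27 to 1.29 with 1 library left out (EVX1-Δfs replicate 2 and replicate 3, respectively). *Zfp592* and *Zfp687*, which form a complex with ZMYND8, had log2 fold changes of 0.35 and 0.05 with standard errors of 0.32 and 0.26. Without EVX1-Δfs replicate 3 that of *Zfp592* was -0.0048, and that of *Zfp687* ran from -0.14 to 0.21 with 1 library left out. *Zfp687* had 1043, 1679 and 1419 normalized counts in EVX1-Δfs and 1164, 1785 and 1331 in Del#3, with replicate 1 lowest and replicate 2 highest in each line.

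The 5 listed members that act on RNA, ribosomes or splicing formed the most abundant of the named groups. Their median was 700.4 normalized counts and 22.9 RPKM, 2 of 5 fold changes were above 0 and the median log2 fold change was -0.06. *Zfp598*, the ubiquitin ligase that marks collided ribosomes, had 950, 748 and 675 normalized counts in EVX1-Δfs and 995, 781 and 657 in Del#3. Its 95% interval ran from -0.53 to 0.59 on the log2 scale. *Zfp622*, a factor of 60S subunit maturation, *Zfp706* and *Zfp830*, a splicing-associated protein, had log2 fold changes of -0.06, -0.11 and 0.03, with standard errors of 0.26, 0.23 and 0.28. *Zfp593* had 554, 887 and 906 in EVX1-Δfs and 375, 920 and 798 in Del#3, with replicate 1 the lowest of each line.

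None of the co-repressors with which KRAB zinc finger proteins work passed the test either, nor did *Zfp57*, a zinc finger gene in the same list. Of 19 genes in the list 18 were listed, all were tested, 0 were called by limma at an adjusted or unadjusted p under 0.05, 0 by edgeR or DESeq2 at an adjusted p under 0.05, and 9 of 18 fold changes were above 0, with a median of -0.01. *Trim28*, the scaffold that KRAB domains bind, had 13278, 19158 and 14795 normalized counts in EVX1-Δfs and 12641, 21261 and 17427 in Del#3, a log2 fold change of 0.11 with a standard error of 0.27. *Setdb1*, the H3K9 methyltransferase it recruits, had a log2 fold change of -0.02 with a standard error of 0.21. *Mphosph8*, a subunit of the HUSH complex, had the largest value at 0.34 with a standard error of 0.52.

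Members differed more between replicate numbers than between lines. Over the 169 members the line accounted for a median of 7.87% of the total sum of squares (log2 scale) and the replicate number for 57.3%, beside 6.70% and 64.4% over all genes tested. The line has 1 degree of freedom here and the replicate number has 2. The replicate 1 libraries were also the deepest of each line, and the part of depth in these shares was not tested. In limma's moderated F test of the replicate number, with Benjamini-Hochberg adjustment, 2 members (1.18%) had an adjusted p under 0.05, against 4.24% of all genes tested. This count changed with the set of libraries. With 1 library left out, 1 replicate number held a single library, so the counts of those fits are not given here.

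The genes called were *Zfp451* and *Zfp871*. *Zfp451*, a SUMO ligase, had 253, 82.0 and 115 normalized counts in EVX1-Δfs and 284, 89.4 and 134 in Del#3 (adjusted p = 0.0305 in limma). Replicate 1 was the highest of each line by a wide margin, and the log2 fold change between the lines was 0.17. *Zfp871*, a KRAB gene of chromosome 17, had 93.7, 12.9 and 39.0 in EVX1-Δfs and 215, 51.1 and 45.9 in Del#3 (adjusted p = 0.0428 in limma). Replicate 1 was again the highest in each line. The log2 fold change of *Zfp871* between the lines was 1.11 with a standard error of 0.73 (limma, unadjusted p = 0.160, adjusted p = 1.00), or an unadjusted p of 0.0136 and an adjusted p of 0.85 with the replicate block. It was 0.39 without EVX1-Δfs replicate 2 and 1.78 without EVX1-Δfs replicate 1. Next in order were *Zfp616*, with 46.2, 131 and 131 in EVX1-Δfs and 63.8, 140.5 and 136 in Del#3, where replicate 1 was the lowest (adjusted p = 0.0514), then *Zfp445* (adjusted p = 0.0593) and *Zfp593* (adjusted p = 0.0613), also by limma.

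Some libraries stood apart within their line. EVX1-Δfs replicate 2 held the lowest value of its line for 82 of 169 members and Del#3 replicate 2 for 72. Del#3 replicate 1 held the highest of its line for 78 and EVX1-Δfs replicate 1 for 67. When single libraries were compared, the members' median log2 difference ran from -0.06 (Del#3 replicate 2 over EVX1-Δfs replicate 1) to 0.31 (Del#3 replicate 1 over EVX1-Δfs replicate 2). At the same replicate number it was 0.13, 0.06 and 0.07 for replicates 1, 2 and 3. Visceral endoderm markers (*Afp*, *Ttr*, *Apoa1* and *Apob*, none at 0) summed to 4.5 to 6.65 RPM in EVX1-Δfs and 4.69 to 23.7 in Del#3, with 23.7 in Del#3 replicate 1. Pluripotent markers summed to 835 to 1019 RPM in EVX1-Δfs and 631 to 1008 in Del#3, and fibroblast markers to 37.5 to 59.7 and 47.0 to 68.5. Their part in the members' values was not tested.

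Spread within lines fell with level. The Spearman correlation of the SD of log2 values within lines with the mean count was -0.544 over 169 members. The median SD was 0.52 for members with a KRAB match and 0.37 for those without, and the median log2 fold changes were 0.19 and 0.09. By finger number, the median log2 fold change was 0.016 with 1 to 5 fingers, 0.11 with 6 to 10 and 0.15 with 11 or more. Members with more fingers and with a KRAB match were also the lower ones in level, so these groupings describe overlapping genes. The largest spreads among members with a mean of at least 50 normalized counts were those of *Zfp711*, *Zfp871*, *Zfp644*, *Zfp930* and *Zfp451*, with SDs of 1.33, 1.31, 0.90, 0.86 and 0.84 on the log2 scale. *Zfp930* had 162, 91.4 and 262 normalized counts in EVX1-Δfs and 324, 352 and 108 in Del#3, with replicate 2 the lowest of one line and the highest of the other.

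Members inside and outside clusters had similar medians. The median log2 fold change was 0.11 for the 70 tested members in clusters and 0.12 for the 98 outside them. Among single clusters, that at chr8:74411163-74517307 (NCBIM37), with *Zfp709*, *Zfp882*, *Zfp617* and *Zfp961*, had the highest median at 0.73 with all 6 libraries. All 4 of its fold changes were above 0. Its median was not the highest without EVX1-Δfs replicate 2 or 3, or without Del#3 replicate 1 or 3. *Zfp961* had 486, 186 and 412 normalized counts in EVX1-Δfs and 473, 332 and 532 in Del#3. *Zfp617* had 85.8, 24.6 and 70.9 in EVX1-Δfs and 139, 65.0 and 82.2 in Del#3. In both genes EVX1-Δfs replicate 2 was the lowest library, and the lines overlapped. Without that library the cluster's median was 0.32 and 3 of 4 fold changes were above 0, with *Zfp961* at -0.03 and *Zfp617* at 0.22, and without Del#3 replicate 1 the median was 0.41. The 5 members at chr6:47769265-48036592, among them *Zfp746*, known as PARIS, were also all above 0, at 0.11 to 0.17 on the log2 scale, as were the 3 at chr9:20149580-20399638 (median 0.05) and the 4 tested at chr9:21859904-22094985 (median 0.36). With 1 library left out in turn, all tested members of the last of these clusters were above 0 in each of the 6 fits. In the chromosome 6 cluster 1 gene fell below 0 without EVX1-Δfs replicate 1 or Del#3 replicate 2, and in the first chromosome 9 cluster 1 gene did without EVX1-Δfs replicate 2 or Del#3 replicate 1 and 2 did without Del#3 replicate 3. The 4 members at chr7:6083091-6282887 followed the replicate number most closely, with a median of 96.7% of their sum of squares.

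**Figure D4:**
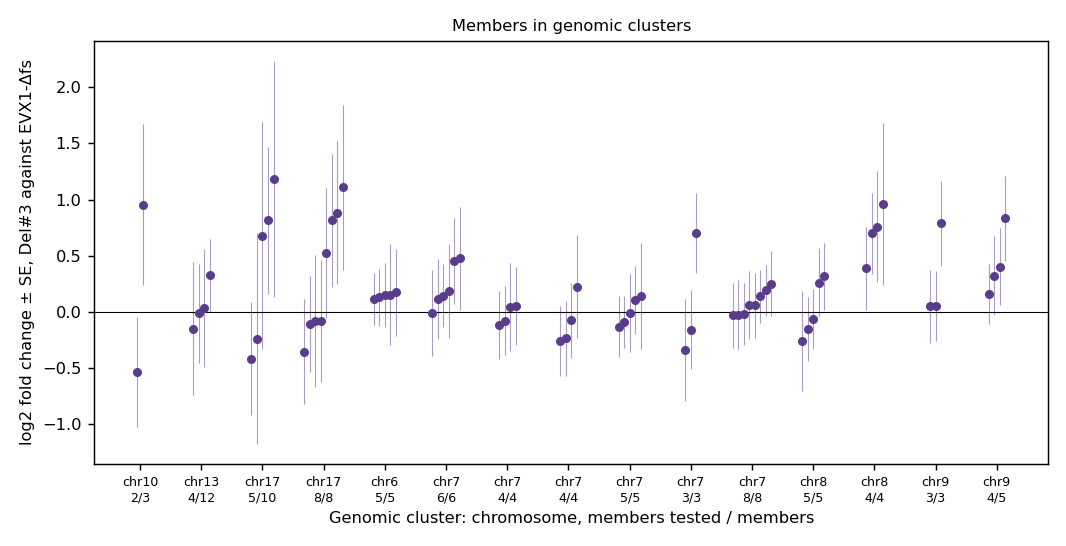
Log2 fold change (Del#3 over EVX1-Δfs) of each tested member in its genomic cluster, 1 point per gene, with bars of ± 1 standard error and the number of members tested under each cluster. The cluster of *Zfp709*, *Zfp882*, *Zfp617* and *Zfp961* on chromosome 8 has 4 of 4 points above 0, from 0.39 to 0.96, and 3 of 4 without EVX1-Δfs replicate 2.

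Promoters are shown for 4 genes, *Zfp445* and *Zfp770* for their small p values between lines and *Zfp451* and *Zfp871* for theirs between replicate numbers. They are RefSeq sequences of the GRCm38.p6 build, the 250 bases before the annotated start, read 5′ to 3′ on the gene's strand, which is the minus strand for all 4. Capitals mark matches to the motifs searched on both strands: the ETS core CCGGAAG, the GC box GGGCGG, the YY1 core AAGATGGC, the TATA box TATAAA and the CCAAT box CCAAT. The windows lie at chr9:122866007-122866256 for *Zfp445*, chr2:114201433-114201682 for *Zfp770*, chr1:33814596-33814845 for *Zfp451* and chr17:32788288-32788537 for *Zfp871*. In the *Zfp451* window the YY1 and ETS matches overlap in 1 run.
Zfp445: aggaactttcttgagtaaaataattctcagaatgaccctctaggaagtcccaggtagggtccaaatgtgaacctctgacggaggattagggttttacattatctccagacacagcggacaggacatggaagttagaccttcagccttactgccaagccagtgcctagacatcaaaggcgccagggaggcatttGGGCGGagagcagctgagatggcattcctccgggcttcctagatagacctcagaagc
Zfp770: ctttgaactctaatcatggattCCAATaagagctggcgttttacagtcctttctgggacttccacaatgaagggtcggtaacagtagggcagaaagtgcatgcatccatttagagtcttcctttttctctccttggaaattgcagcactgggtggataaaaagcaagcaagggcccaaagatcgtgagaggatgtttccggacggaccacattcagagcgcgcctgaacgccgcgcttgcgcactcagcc
Zfp451: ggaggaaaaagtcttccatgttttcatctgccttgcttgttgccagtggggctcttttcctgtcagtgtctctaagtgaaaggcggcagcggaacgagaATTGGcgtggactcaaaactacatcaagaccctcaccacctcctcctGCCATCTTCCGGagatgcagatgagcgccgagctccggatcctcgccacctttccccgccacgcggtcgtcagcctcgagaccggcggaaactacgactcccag
Zfp871: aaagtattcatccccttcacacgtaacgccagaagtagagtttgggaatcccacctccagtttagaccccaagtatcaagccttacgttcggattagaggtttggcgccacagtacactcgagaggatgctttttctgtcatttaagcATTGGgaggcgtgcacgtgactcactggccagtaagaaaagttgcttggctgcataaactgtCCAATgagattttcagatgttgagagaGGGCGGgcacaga

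A promoter window was matched to 156 members by symbol, and they were compared with 27025 windows of all genes. Members had a median of 11 CpG dinucleotides per window and all genes 6, with 54.2% and 52.0% GC. The ETS core was present in 14.1% of members' windows and 7.05% of all windows, the GC box in 44.9% and 32.9%, and the CCAAT box in 48.1% and 34.5%. The TATA box was present in 3.85% and 12.97%, and the YY1 core in 2.56% and 1.59%. These matches are a description of the letters in the windows.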

How the data were processed

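The members and lists were chosen with earlier results of these data known. For the authors' table, reads of an Ion Proton were aligned by TopHat2, with TMAP for the rest, on mm9, counted by HTSeq and normalized with DESeq2. The deposited values are these normalized counts (a signal). In each library 100% were whole multiples of 1 step, within 0.01 of a read, and reads were recovered from it. The test was limma 3.58.1 (R 4.3.3) with a mean-variance trend, on the log2 scale of the normalized count plus 1, for 12891 genes kept by filterByExpr of edgeR 4.0.16 (minimum count 10), with Benjamini-Hochberg adjustment at 0.05. DESeq2 1.42.0 and edgeR on recovered reads were alternatives. Of these fits, only limma's test between lines without the replicate block was also run on simulated counts. Intervals are 95% and cover the spread between libraries. RPKM used the exon lengths of GENCODE vM1 on NCBIM37, and 191 members matched by name.

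The series text says that replicates were side by side differentiations of both lines on different days. Over all genes tested the same-number libraries' deviations correlated at 0.74, 0.32 and -0.05 for replicates 1 to 3. The correlations over the members were 0.73, 0.06 and -0.56. Same-number libraries thus deviated together for number 1 in both sets and for number 3 in neither. The replicate 1 libraries were also the deepest of each line, at 15699124 reads in EVX1-Δfs and 12231851 in Del#3. The part of depth in this was not tested. Fingers were counted as cysteines 2 to 4 residues apart, 12 residues to a histidine and 3 to 5 to the next. The KRAB pattern was widened after 55 members matched the first form, and 79 matched the wider one. Named genes were the role lists, the 5 smallest p values in each direction and by replicate number, the 5 highest RPKM and the 5 largest SDs at a mean of at least 50, and clusters.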

Additional observations from a re-analysis of the deposited data

How the results depend on the processing

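No member was called between the lines under any of the 18 alternatives, and the lowest adjusted p of a named member was 0.0736 (*Zfp445*). Of 47 named members tested, 29 kept their sign in every alternative and 18 changed it in at least 1. The members with an unadjusted p under 0.05 were 3 in the main test (1.78%, against 1.03% of all genes). They were 5 without the filter on low counts (2.59%, against 1.37% of all genes), and 1 to 10 with any 1 library removed (0.575% to 5.85%, against 0.599% to 3.47% of all genes). With the replicate number as a block they were 12 in limma, 10 in edgeR and 6 in DESeq2 (7.10%, 5.92% and 3.55%, against 4.62%, 4.5% and 3.21% of all genes). The block changed no other call among members, and over all genes it gave 3 calls in limma and edgeR and 18 in DESeq2, in place of 2. The correlation between lines was not highest at the same number for every library, and over the members EVX1-Δfs replicate 2 correlated with Del#3 replicate 3 at 0.64. Members called by replicate number were 2 in the main test (1.18%, against 4.24% of all genes). They were 1 with TMM factors and 1 with scaling by total reads (0.592% each, against 2.59% and 2.46% of all genes). With the DESeq2 test they were 6 (3.55%, against 10.1% of all genes). They were 0 to 50 when a library was left out, but 1 replicate number then held a single library, so no conclusion is drawn. Members above 0 numbered 89 of 135 with at least 10 reads required in every library and 100 to 127 in the other alternatives, against 112 of 169, their median log2 fold change was 0.060 to 0.19 with a library left out, and the difference in summed level was then 215 to 623 RPM. The causes were not tested. In fits that left out a library, a line had 2 samples and a replicate number had 1. Low counts limit the 57 members with the lowest means, with a median standard error of 0.52.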
